A study of Mus musculus with 90 samples.

Results

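The 38 genes described here encode enzymes that place and remove acetyl groups, many but not all of them on histone lysines. Others encode bromodomain proteins that read such groups and scaffolds of the complexes these enzymes work in. The genes were taken by symbol from the count table, where all 38 of the 38 listed symbols were present among 24422 genes and all 38 passed the filter on low counts that left 16511 genes for testing. The study compared wildtype (WT) CD-1 mice with a Plag1 knockout in the same strain, in which lacZ replaces the open reading frame of Plag1, a zinc finger transcription factor. Metaphase II (MII) oocytes were collected 21 to 23 h after hCG from superovulated WT or knockout females, and 2-cell (2c) and 8-cell (8c) embryos were cultured from zygotes of the same kinds of females mated with WT studs and picked at 45 to 47 h and 71 to 73 h. Embryos of knockout mothers, called matPlag1KO, therefore carried a WT paternal allele and are heterozygous, so at 2c and 8c the groups differ in the maternal genotype and in 1 allele of the embryo. Each library came from a single oocyte or embryo, with 16 per genotype at MII, 14 at 2c and 15 at 8c. The donor female of an embryo was not given, so embryos of 1 mother may stand among the replicates of a group. In each single embryo, fewer cells of a type and less RNA per cell cannot be told apart.

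Acetyl groups on histone tails loosen chromatin and mark active promoters and enhancers. Acetyltransferases fall into the GNAT, MYST and CBP/p300 families, deacetylases into the zinc-dependent HDAC classes and the NAD-dependent sirtuins, and bromodomains bind the acetylated lysine. In the mammalian oocyte and early embryo, transcripts stored by the mother are degraded while the zygotic genome is switched on, and acetylation is rewritten over the same divisions.

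CPM here is a gene's count scaled to the same total in every library. After 12 libraries whose median gene lay below 1 CPM were left out, 78 remained, 16 and 14 at MII, 11 and 11 at 2c, and 15 and 11 at 8c, for WT and for knockout mothers. They held 92475 to 2502421 gene counts. The labels split the libraries into 2 sets, libA and libB, which the paper made as separate multiplexed pools. They are here called plates A and B, and both held every stage and genotype. Embryos were picked on several occasions, and the labels do not say which embryo came from which. The targeted gene gave 326 counts over the 16 WT oocytes and 4 over the 14 knockout oocytes. At 2c the order was the opposite, with 1 count over 11 WT embryos and 91 over 11 embryos labelled matPlag1KO that carry a WT paternal allele, so counts there do not go against that label. All 8 oocyte markers had counts in every group, and in WT they summed to a median of 8286 CPM at MII, 3468 at 2c and 83.3 at 8c. Of the 6 markers of the 2-cell stage, Tcstv1 and Tcstv3 were at 0 in every group. The others summed to a median of 203 CPM in WT 2c embryos, beside 0.377 at MII and 2.39 at 8c. All 7 markers of the 8-cell embryo had counts at 8c, but also in knockout oocytes and matPlag1KO 2c embryos. In WT they summed to a median of 87.5 CPM at MII, 94.1 at 2c and 531 at 8c. Cumulus cell markers summed to at most 106 CPM in any library, and Ptx3, Lum and Col1a2 had no count in any group. Counts were scaled in either of 2 ways. TMM scaling, used between genotypes, sets most genes level between libraries, and scaling by the counts of ERCC spike-in RNA, used between stages, keeps changes in the amount of RNA per embryo. Between MII and 2c in WT the log2 fold changes of all genes had a median of -1.46 with spike-in scaling and -0.03 with TMM, and between 2c and 8c one of 0.53 and -0.12, so stage calls that stood on both scales are named as such. At 2c the direction of the genotype calls over all genes also moved with the scaling, from 379 higher and 433 lower with TMM to 191 higher and 94 lower with spike-in scaling.

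Promoter windows of the members that carry the main results are printed here because the libraries count 5′ ends of transcripts and the windows span the annotated gene starts. Where the counted molecules begin was not read from the files. Each window runs from 250 bases before to 50 bases after the deposited gene start, in the orientation of the gene, and was read from NCBIM37, the assembly also called mm9 in which the counts were made. The 2-part PLAG1 consensus, which capitals would mark, was searched on both strands as either GAGGC or else GGGGC, a gap of 7 bases of any kind, and a second piece that may be AGGG, or may be AGGT, or may be GGGG, or may be GGGT. Sin3b (chr8:75246919-75247218, plus strand) and Hat1 (chr2:71227067-71227366, plus strand) are the members that passed the test between genotypes, and Sirt6 (chr10:81090304-81090603, minus strand), Brdt (chr5:107759963-107760262, plus strand) and Hdac1 (chr4:129219841-129220140, minus strand) changed widely between stages.
Sin3b: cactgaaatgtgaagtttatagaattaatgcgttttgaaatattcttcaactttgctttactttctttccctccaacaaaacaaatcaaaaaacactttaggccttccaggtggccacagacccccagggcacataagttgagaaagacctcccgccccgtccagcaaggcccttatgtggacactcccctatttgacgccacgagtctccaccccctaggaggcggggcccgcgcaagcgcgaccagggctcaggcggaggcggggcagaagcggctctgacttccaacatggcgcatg
Hat1: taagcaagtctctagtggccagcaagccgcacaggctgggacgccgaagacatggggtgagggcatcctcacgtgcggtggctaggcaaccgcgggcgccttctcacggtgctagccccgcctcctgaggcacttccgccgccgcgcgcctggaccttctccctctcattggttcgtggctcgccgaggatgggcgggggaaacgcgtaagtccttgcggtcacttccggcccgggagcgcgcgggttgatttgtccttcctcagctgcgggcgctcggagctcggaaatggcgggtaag
Sirt6: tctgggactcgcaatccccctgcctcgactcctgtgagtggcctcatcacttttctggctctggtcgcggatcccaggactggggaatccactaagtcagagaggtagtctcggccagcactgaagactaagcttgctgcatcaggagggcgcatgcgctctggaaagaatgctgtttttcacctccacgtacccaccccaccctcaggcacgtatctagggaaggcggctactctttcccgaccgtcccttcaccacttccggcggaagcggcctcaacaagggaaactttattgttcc
Brdt: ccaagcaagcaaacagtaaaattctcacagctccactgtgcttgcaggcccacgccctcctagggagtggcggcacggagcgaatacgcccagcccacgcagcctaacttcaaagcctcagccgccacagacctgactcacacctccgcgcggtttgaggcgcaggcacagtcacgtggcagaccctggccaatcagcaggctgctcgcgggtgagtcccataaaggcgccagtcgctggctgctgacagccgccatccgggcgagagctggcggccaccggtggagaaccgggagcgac
Hdac1: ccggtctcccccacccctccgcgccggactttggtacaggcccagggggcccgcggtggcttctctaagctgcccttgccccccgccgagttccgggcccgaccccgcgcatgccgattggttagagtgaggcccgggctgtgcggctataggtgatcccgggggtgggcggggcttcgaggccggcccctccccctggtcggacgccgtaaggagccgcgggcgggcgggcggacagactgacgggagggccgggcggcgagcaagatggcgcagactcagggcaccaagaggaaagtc
None of these 5 windows held a match, so they are in lower case throughout. Among all 38 members 5 windows matched, which is 13.2% beside 11.2% of the 24320 windows of all genes. The windows of the members had a median GC content of 61.3% and those of all genes 55.7%. No match says only that these letters are not in this window.

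Between the oocyte and the 2-cell embryo, most members that changed fell with spike-in scaling, while with TMM more rose than fell. With spike-in scaling, 5 members rose in WT and 20 fell, by quasi-likelihood tests in edgeR whose p-values were adjusted after Benjamini and Hochberg over 16511 genes. Over all genes 14.1% rose and 51.3% fell, so the share of members in each direction was near the background. In matPlag1KO, 6 members rose and 21 fell, beside 13.5% and 50.3% of all genes. With TMM scaling 13 members rose in WT and 8 fell, beside 27.5% and 23.1% of all genes, and in matPlag1KO 14 rose and 9 fell, beside 29.1% and 19.3%. On both scales Hdac1, Hdac5, Sirt1, Kat2b and Brpf1 rose in WT. A further 8 members fell in WT on both scales, namely Sirt2, Sirt4, Sirt6, Kat7, Kat8, Brd3, Sin3a and Sin3b. The median log2 fold change of the 38 members was -1.32 in WT with spike-in scaling and 0.55 with TMM, beside -1.46 and -0.03 for all genes. Brd1, a subunit of the MOZ and HBO1 acetyltransferase complexes, was the 1 member called in opposite directions by the scalings, in both genotypes.

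**Figure D1:**
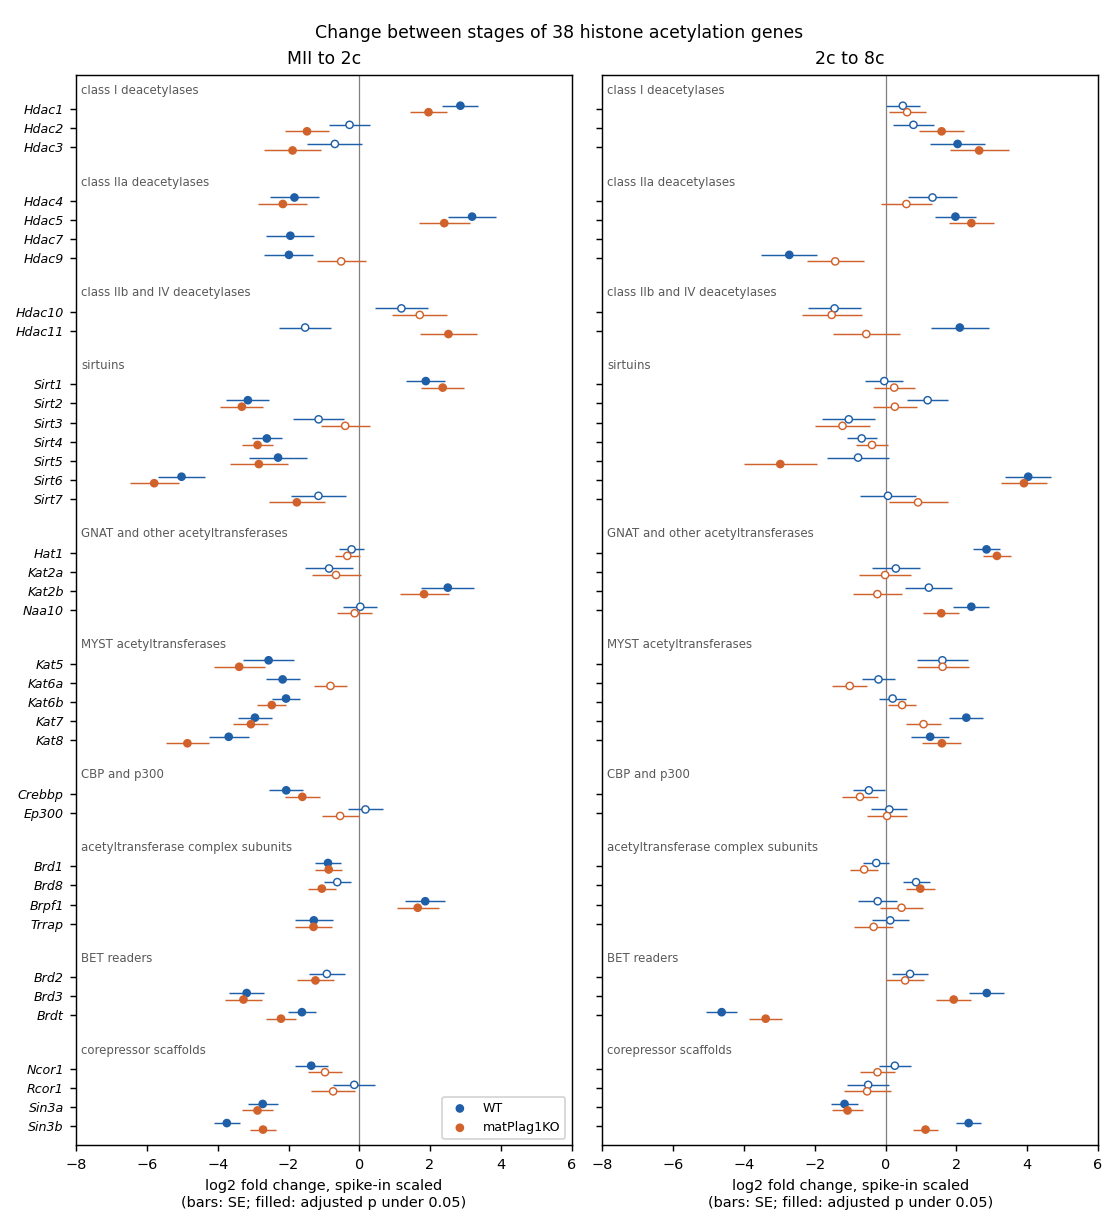
Log2 fold change of each of the 38 members over both steps, MII to 2c and then to 8c, scaled by spike-in RNA, for WT (blue) and matPlag1KO (orange), with standard errors as bars and filled points for an adjusted p under 0.05; a change is not drawn where both groups held 3 counts or fewer. Sirt6, Brd3 and Sin3b lie left of 0 in the first panel and right of it in the second, while Brdt lies left of 0 in both.

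Among the deacetylases, class I Hdac1, the catalytic subunit of the Sin3, NuRD and CoREST complexes, went from nearly absent to readily counted. In WT it had 42 counts over 16 oocytes, where its level ran from 0 over a median of 3.02 to 15.9 CPM, and 206 counts over 11 embryos at 2c, from 42.4 over 97.1 to 205 CPM. The groups did not overlap on the CPM scale, with every 2c embryo above every oocyte. The log2 fold change of Hdac1 was 2.86 (SE 0.51, adjusted p = 1.28e-06 in edgeR) with spike-in scaling and 4.52 with TMM, and in matPlag1KO it was 1.95 (SE 0.51, adjusted p = 0.000698 in edgeR). From 2c to 8c Hdac1 did not pass the test in either genotype, at 0.49 and 0.61. Its close relative Hdac2 had a mean of 3.08 to 11.6 CPM in the 6 groups and passed the test in WT at neither step with either scaling. In matPlag1KO Hdac2 fell to 2c by 1.48 (SE 0.61, adjusted p = 0.0286 in edgeR) and rose to 8c by 1.59 (SE 0.64, adjusted p = 0.032) with spike-in scaling, and neither change passed with TMM (0.15 and 0.91).

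Hdac5, a class IIa deacetylase that acts through NCoR-bound Hdac3, was at 1 count over 16 WT oocytes, 16 counts over 11 embryos at 2c and 110 over 15 embryos at 8c. On the spike-in scale the pooled level at 2c was 24.7 times that at MII, with a 95% exact interval for counting error of 3.84 to 1037, and at 8c it was 4.16 times that at 2c (2.45 to 7.53). In matPlag1KO the counts were 1, 10 and 57. Hdac9, of the same class, ran the other way in WT, with 103 counts over the oocytes, 16 at 2c and 2 at 8c, and its fall to 2c passed the test with spike-in scaling alone (-1.99, and -0.48 with TMM). Hdac7, Hdac10 and Hdac11 held at most 8 counts in any group and were too rare for a level to be read.

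The sirtuins split. Sirt6, a deacetylase of histone H3 on chromatin, had, among the members called in both genotypes, the lowest log2 fold change from MII to 2c and the highest from 2c to 8c. In WT its level ran from 0.752 over a median of 3.25 to 51.0 counts per 1000 spike-in counts at MII, from 0 over 0.231 to 0.526 at 2c and from 0.910 over 3.09 to 12.2 at 8c. No 2c embryo of either genotype reached the lowest oocyte or the lowest 8c embryo of its genotype. The log2 fold change from MII to 2c was -5.03 (SE 0.66, adjusted p = 4.19e-10 in edgeR) in WT and -5.80 (SE 0.69, adjusted p = 1.35e-11) in matPlag1KO, and from 2c to 8c it was 4.03 (SE 0.64, adjusted p = 1.31e-07 in edgeR) and 3.91 (SE 0.66, adjusted p = 5.83e-07). With TMM the WT values were -3.13 and 3.12, so the dip stood on both scales. In WT it was -5.33 and 3.57 within plate A and -4.47 and 4.36 within plate B. Sirt1, which deacetylates histones and many transcription factors, rose from 21 counts over 16 WT oocytes to 52 counts over 11 embryos at 2c, a log2 fold change of 1.88 (SE 0.56, adjusted p = 0.00234 in edgeR) in WT and 2.36 (SE 0.61, adjusted p = 0.00057) in matPlag1KO. Within plate A the WT value was 1.81 and did not pass the test (adjusted p = 0.0844 in edgeR), and within plate B it was 2.15. Sirt2 and Sirt4, a largely cytoplasmic and a mitochondrial sirtuin, fell at 2c in both genotypes on both scales.

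The corepressor scaffolds Sin3a and Sin3b, which carry Hdac1 and Hdac2 to promoters, both fell at 2c and then parted. Sin3a was the member with the most counts in oocytes, from 7.77 over a median of 43.9 to 161 counts per 1000 spike-in counts in WT. It fell by 2.73 (SE 0.43, adjusted p = 6.3e-08 in edgeR) on the log2 scale to 2c, where the range was 2.67 to 13.0, and by a further 1.16 (SE 0.39, adjusted p = 0.0107 in edgeR) to 8c, where it was 0.800 to 7.34. Sin3b ran from 4.76 over 8.05 to 22.7 at MII, from 0.445 over 0.754 to 1.09 at 2c and from 2.82 over 3.92 to 5.81 at 8c in WT. The 3 ranges did not overlap between MII and 2c or between 2c and 8c. Its log2 fold changes were -3.75 (SE 0.38, adjusted p = 1.21e-14 in edgeR) and 2.35 (SE 0.36, adjusted p = 3.51e-08). With TMM, Sin3a changed by -1.08 and -2.07 and Sin3b by -2.36 and 1.43 in WT. Within plate A the second fall of Sin3a was -1.14 and did not pass the test (adjusted p = 0.168 in edgeR). In matPlag1KO the rise of Sin3b to 8c was 1.13 (SE 0.35, adjusted p = 0.00527 in edgeR) and with TMM 0.40, which did not pass. Ncor1, the scaffold of Hdac3, fell in WT with spike-in scaling alone (-1.36, and 0.59 with TMM), and Rcor1, the scaffold of the CoREST complex, passed the test in neither genotype with spike-in scaling.

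All 5 MYST acetyltransferases fell from MII to 2c in WT with spike-in scaling, and in matPlag1KO 4 of 5 did, all but Kat6a, beside 51.3% and 50.3% of all genes. Kat8, which acetylates histone H4 on lysine 16, ran from 0.251 over 4.97 to 25.0 counts per 1000 spike-in counts in WT oocytes and from 0 over 0.358 to 1.23 at 2c, a log2 fold change of -3.69 (SE 0.57, adjusted p = 3.99e-08 in edgeR), and of -4.86 (SE 0.60, adjusted p = 4.67e-11) in matPlag1KO. From 2c to 8c Kat8 rose with spike-in scaling alone, by 1.26 in WT and 1.59 in matPlag1KO, beside 0.40 and 0.73 with TMM, and within plate A it did not pass the test in WT (0.45). Kat7, the catalytic subunit of the HBO1 complex, fell from MII to 2c by 2.95 in WT and 3.07 in matPlag1KO. With TMM all 5 log2 fold changes from MII to 2c were below 0 in WT, and those of Kat7 and Kat8 passed the test. In matPlag1KO Kat6a was called in the other direction with TMM, at 1.05.

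Of the 4 GNAT and related enzymes, 1 rose and none fell from MII to 2c in WT with spike-in scaling, beside 14.1% and 51.3% of all genes. With TMM 3 of the 4 rose, beside 27.5%. Kat2b (PCAF), a coactivator acetyltransferase of SAGA-type complexes, had 3 counts over the 16 WT oocytes and 16 over 11 embryos at 2c, a pooled level 8.24 times higher (95% exact interval for counting error 2.36 to 44.1). Hat1, which acetylates newly made histone H4 before it is put on DNA, did not pass the test from MII to 2c with spike-in scaling (-0.22 in WT) and rose with TMM (1.39). From 2c to 8c it rose on both scales, by 2.86 (SE 0.39, adjusted p = 1.37e-09 in edgeR) in WT and 3.15 (SE 0.40, adjusted p = 1.8e-10) in matPlag1KO with spike-in scaling. In WT it ran from 0.461 over 1.20 to 2.37 counts per 1000 spike-in counts at 2c and from 5.05 over 8.53 to 14.1 at 8c, and these ranges did not overlap. Naa10, the catalytic subunit of the main amino-terminal acetyltransferase, rose over the same step by 2.43 (SE 0.51, adjusted p = 4.27e-05 in edgeR) in WT and 1.58 (SE 0.52, adjusted p = 0.0082) in matPlag1KO. With TMM its rise in matPlag1KO did not pass the test (0.84), nor did the WT rise within plate A (1.83, adjusted p = 0.0864 in edgeR).

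The coactivators CBP and p300 differed. Crebbp fell by 2.07 (SE 0.49, adjusted p = 0.000163 in edgeR) from MII to 2c in WT with spike-in scaling and was at 0.08 (adjusted p = 0.874 in edgeR) with TMM, while Ep300 was at 0.17 with spike-in scaling and was called higher with TMM (2.11). Brpf1, the scaffold of the MOZ and MORF complexes, rose at 2c by 1.86 (SE 0.57, adjusted p = 0.00307 in edgeR) in WT and 1.65 (SE 0.60, adjusted p = 0.0131) in matPlag1KO. Trrap, the shared scaffold of SAGA and TIP60 complexes, fell by 1.29 and 1.30 with spike-in scaling and not with TMM.

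The BET readers, whose paired bromodomains bind acetylated histone H4, each had a course of their own. Brdt, known from male germ cells, had the second most counts of the members in oocytes and was still counted at 2c. In WT it ran from 9.12 over 23.2 to 80.0 counts per 1000 spike-in counts at MII, from 2.67 over 5.97 to 26.4 at 2c and from 0 over 0.341 to 1.24 at 8c. No 8c embryo of WT reached the lowest 2c embryo. The log2 fold change from 2c to 8c was -4.63 (SE 0.44, adjusted p = 1.81e-15 in edgeR) in WT and -3.39 (SE 0.47, adjusted p = 2.34e-09) in matPlag1KO, and with TMM it was -5.56 and -3.99. Brd3 went down and up again, by -3.18 (SE 0.50, adjusted p = 6.76e-08 in edgeR) to 2c and 2.86 (SE 0.50, adjusted p = 1.09e-06) to 8c in WT, with TMM values of -1.43 and 1.92. Brd2 passed the test in WT at neither step with spike-in scaling (-0.92 to 2c) and was called higher at 2c with TMM (1.33). In matPlag1KO it fell to 2c by 1.24 (SE 0.52, adjusted p = 0.0328 in edgeR) with spike-in scaling and was at 0.71 with TMM.

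**Figure D2:**
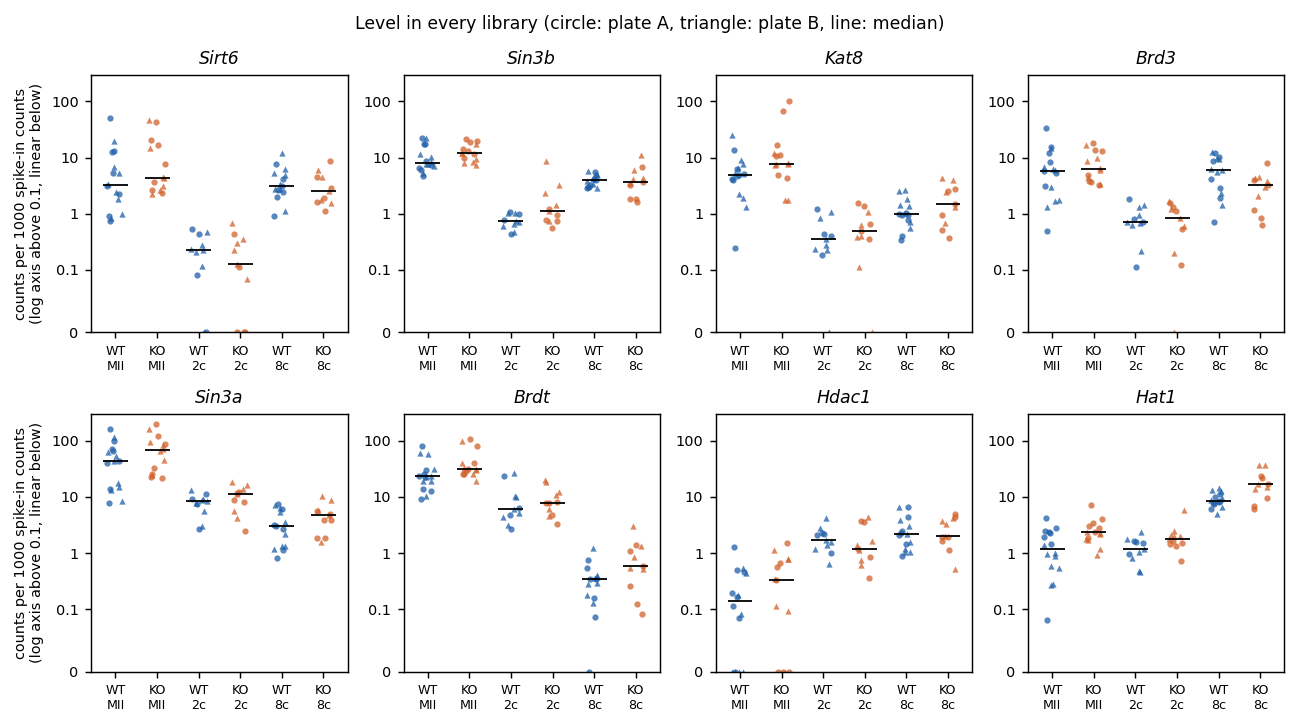
Counts per 1000 spike-in counts of 8 members in every library, by genotype and stage, on an axis that is logarithmic above 0.1 and linear below; circles are plate A, triangles plate B, and lines are medians. Sirt6, Sin3b, Kat8 and Brd3 dip at 2c, Sin3a and Brdt step down, Hdac1 is higher from 2c on and Hat1 is higher at 8c.

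From 2c to 8c, 10 members rose in WT and 3 fell with spike-in scaling, beside 31.9% and 16.2% of all genes. In matPlag1KO 10 rose and 3 fell too, beside 29.1% and 19.5%. With TMM 6 rose and 12 fell in WT, beside 21.0% and 28.9%, and 5 rose and 13 fell in matPlag1KO, beside 21.2% and 30.3%. Sirt6, Kat7, Hat1, Brd3, Sin3b and Naa10 rose and Hdac9, Brdt and Sin3a fell in WT on both scales. Over the whole span from MII to 8c with spike-in scaling, 7 members rose and 17 fell in WT, beside 27.1% and 43.6% of all genes, and 8 rose and 19 fell in matPlag1KO, beside 24.1% and 45.2%. The WT balance differed between plates, with 4 rising and 19 falling within plate A and 10 and 8 within plate B. Over all genes 2928 rose and 6742 fell within plate A in WT, and 4849 and 4579 within plate B. In matPlag1KO 6 members rose and 15 fell within either plate. With TMM 12 rose and 13 fell in WT, beside 36.0% and 36.3%, and 10 rose and 10 fell in matPlag1KO, beside 34.6% and 34.0%. The 7 risers of WT with spike-in scaling were Hdac1, Hdac5, Sirt1, Kat2b, Hat1, Brpf1 and Naa10, and they rose with TMM as well. As a share of all gene counts, the 38 members together took a median of 0.287% in WT oocytes, 0.309% at 2c and 0.144% at 8c, and 0.299%, 0.328% and 0.176% in the groups of knockout mothers. The groups overlapped at MII and 2c in both genotypes, and so did those at 2c and 8c. In WT the lowest 2c embryo was at 0.185% and the highest 8c embryo at 0.249%, and with knockout mothers these were 0.204% and 0.222%.

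The changing balance within families was followed as the share of a pair's counts that came from 1 of its genes, in libraries with 10 or more counts of the pair. Since 5′ ends are counted, a count does not grow with transcript length, and the share is a description with no test. Sin3a made up a mean of 76.6% ± 12.7 (SD, n = 16) of Sin3a and Sin3b counts in WT oocytes, 90.0% ± 3.14 (SD, n = 11) at 2c and 42.2% ± 17.3 (SD, n = 15) at 8c. Every WT embryo at 8c was below every WT embryo at 2c. With knockout mothers the ranges overlapped, from 39.7% to 95.7% at 2c and from 27.6% to 68.3% at 8c. Brd2 made up 32.8% ± 16.9 (SD, n = 16) of Brd2 and Brd3 counts in WT oocytes, 78.7% ± 11.0 (SD, n = 11) at 2c and 43.2% ± 16.3 (SD, n = 15) at 8c, a rise and a return. For Crebbp among Crebbp and Ep300 counts the WT means were 89.6% ± 5.69 (SD, n = 16), 69.2% ± 10.6 (SD, n = 11) and 61.2% ± 21.4 (SD, n = 15). Hdac1 took 93.2% ± 4.43 (SD, n = 10) of Hdac1 and Hdac2 counts at 2c in WT and 88.9% ± 8.39 (SD, n = 15) at 8c, and in oocytes 2 of 16 WT libraries reached 10 counts. Sirt1 and Sirt6 traded places at 2c, where pooled WT counts were 52 and 25, beside 21 and 1444 in oocytes and 85 and 700 at 8c. The share of Kat6a among Kat6a and Kat6b counts in WT 2c embryos was 30.3% ± 15.6 (SD, n = 11). In those of knockout mothers it was 52.3% ± 14.9 (SD, n = 11), and the ranges overlapped.

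**Figure D3:**
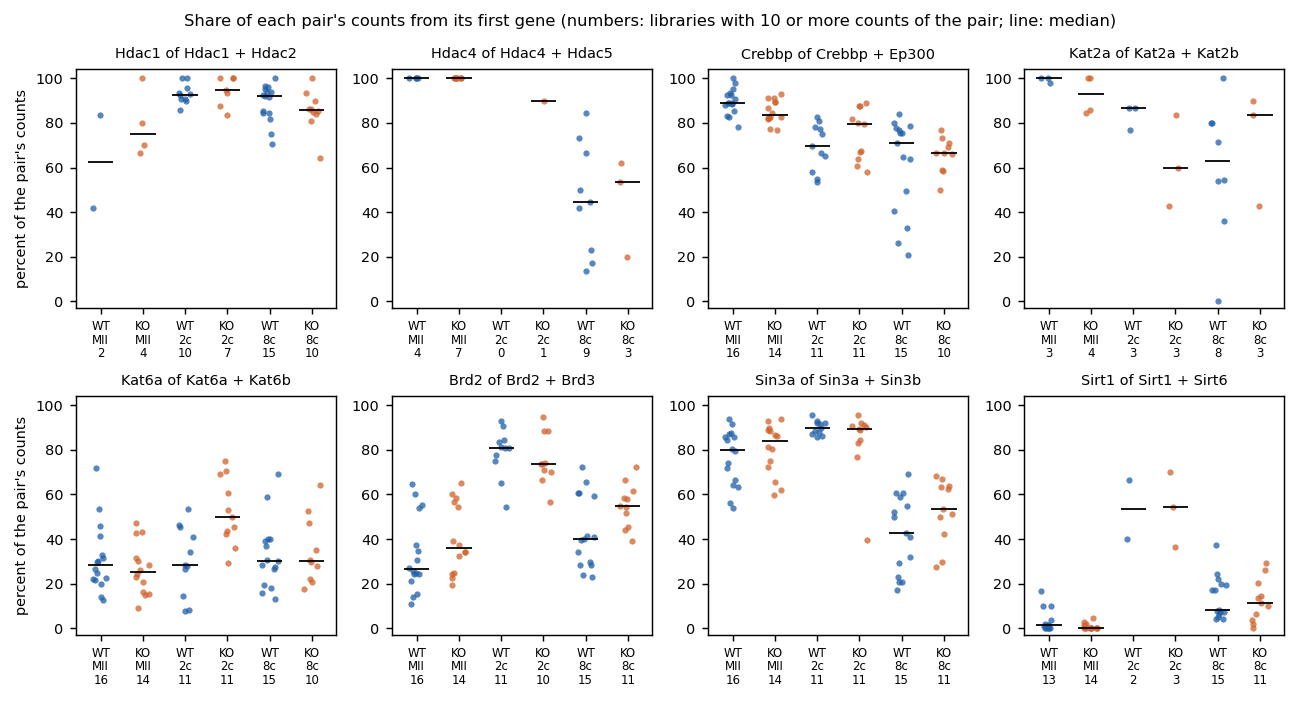
Percent of a pair's counts from its first gene in each library with 10 or more counts of the pair, for 8 pairs of related members and all 6 groups (blue WT, orange knockout mothers), with lines for medians and the number of libraries under each group. The share of Sin3a falls below 70% in every WT embryo at 8c, and that of Brd2 is above 50% in every 2c embryo.

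Few of these genes passed the test between WT and knockout mothers, and with 0 or 1 call per stage their share was near that of all genes. A member that was not called is not thereby shown to be level. In oocytes none of the 38 members passed edgeR's test, beside 0.781% of all genes, and DESeq2 called none either. Plate A alone called Kat8, beside 80 genes higher and 58 lower. A fit with wells of the same name as blocks called Hdac9, beside 639 higher and 153 lower, as described in the closing section. An unadjusted p under 0.05 in the main fit was held by 3 members, Hdac9, Kat8 and Hdac11. At 2c 1 member passed, beside 4.92% of all genes, and 4 had an unadjusted p under 0.05. At 8c 1 member passed, beside 1.74% of all genes, and 4 had an unadjusted p under 0.05. The median log2 fold change of the members was -0.04, 0.07 and -0.10 at the 3 stages, beside 0.00, 0.12 and 0.00 over all genes. Among the 32 members with a mean of at least 10 CPM in some group, the log2 fold changes at 2c lay between -0.89 for Hdac5 and 1.03 for Sin3b. Stage markers moved with genotype as well: at 2c the 2-cell markers summed to 78.1 to 990 CPM with a median of 203 in WT and 241 to 1423 with a median of 498 in matPlag1KO, and the 8 oocyte markers to a median of 3468 and 5263 CPM. In oocytes those 8 markers summed to 5868 to 34796 CPM with a median of 8286 in WT and to 5395 to 32507 CPM with a median of 24985 in the knockout, and the ranges overlapped. At 8c the markers of that stage summed to a median of 531 CPM in WT and 297 in matPlag1KO, and the part of these shifts in the results below was not tested.

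**Figure D4:**
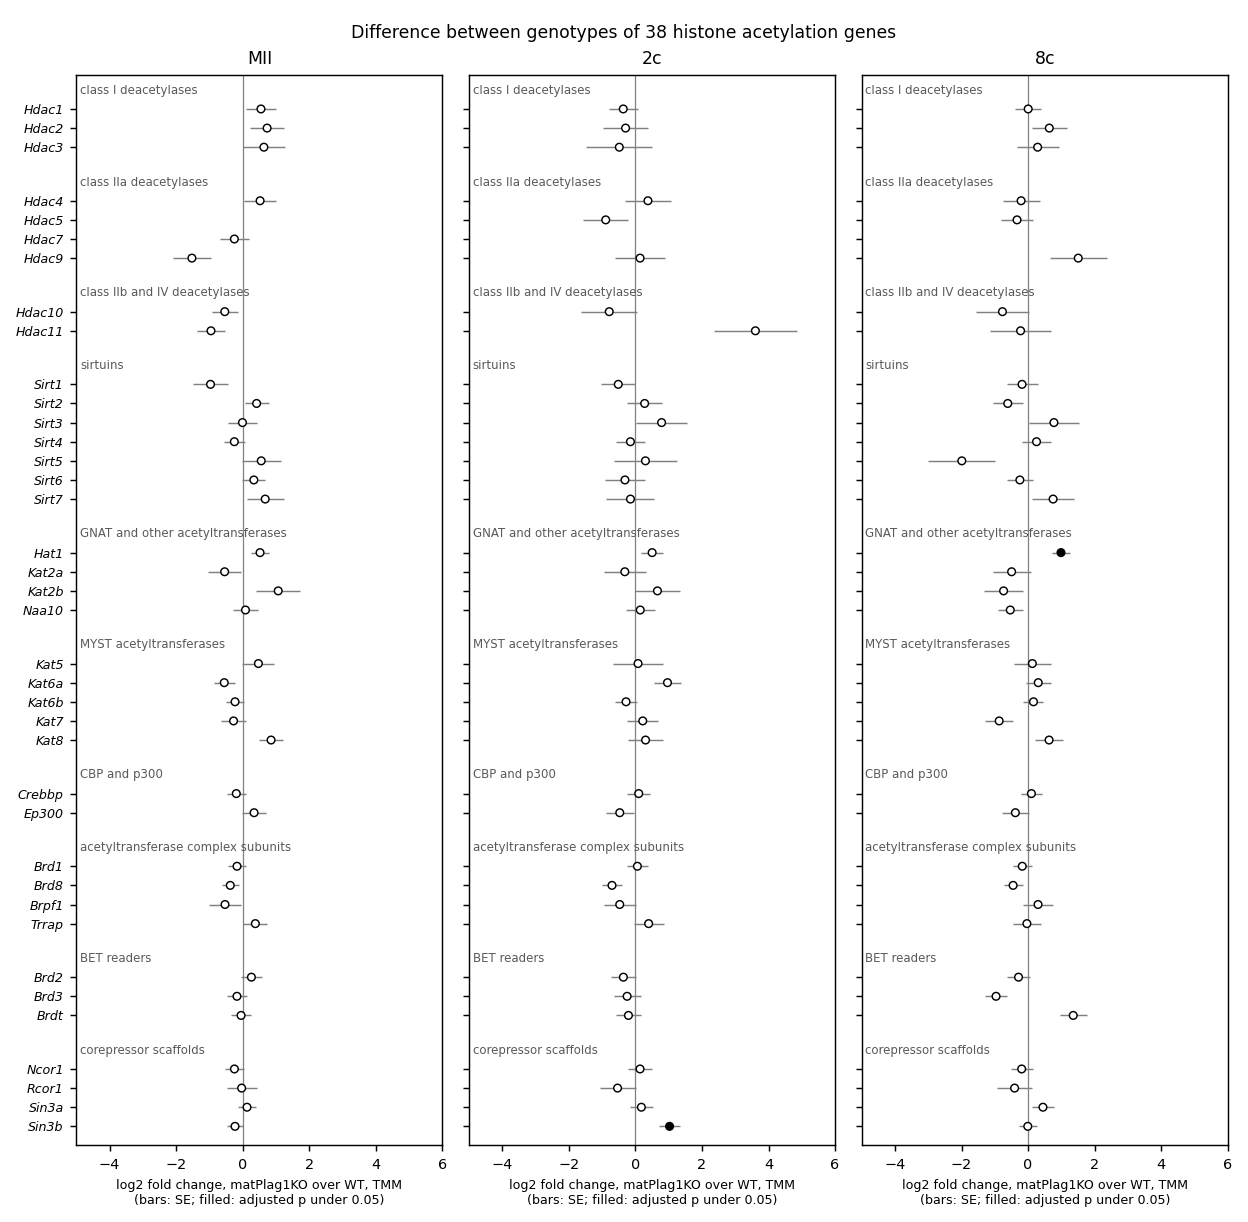
Log2 fold change of matPlag1KO over WT for each member at MII, 2c and 8c, TMM scaled, with standard errors as bars and filled points for an adjusted p under 0.05; a difference is not drawn where both groups held 3 counts or fewer. Filled points are Sin3b at 2c (1.03) and Hat1 at 8c (0.99), and Hdac11 at 2c, far to the right, rests on 6 counts.

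Sin3b was the member called at 2c. Its level in WT ran from 22.5 over a median of 38.9 to 67.0 CPM, and in matPlag1KO from 23.1 over 55.3 to 310 CPM. The ranges overlapped, with 3 of the 11 matPlag1KO embryos above the highest WT embryo, and all 3 came from plate B. The log2 fold change was 1.03 (SE 0.32, adjusted p = 0.0429 in edgeR), with 211 counts over 11 matPlag1KO embryos and 83 over 11 WT embryos. Without the highest embryo, in well D6 of plate B with 76 counts, it was 0.56 (adjusted p = 0.293 in edgeR). Within plate A it was -0.15 (adjusted p = 1 in edgeR, 4 WT and 5 matPlag1KO embryos) and within plate B 1.58 (adjusted p = 0.0202 in edgeR, 7 and 6 embryos), so the difference did not hold within plate A. The call was also lost without plate B wells D2 or D7 of matPlag1KO, and without wells C2 or D5 of plate A or C2, C3, C4, C6 or C8 of plate B in WT, with values of 0.93 to 1.06. At MII and 8c the difference was -0.23 and -0.01. The difference at 2c minus that at MII was 1.26 (SE 0.40, adjusted p = 0.0586 in edgeR), and minus that at 8c it was 1.03 (SE 0.42, adjusted p = 0.159 in edgeR).

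Hat1 was the member called at 8c. Its level in WT ran from 141 over a median of 270 to 341 CPM, and in embryos of knockout mothers from 196 over 545 to 861 CPM. Of the 11 matPlag1KO embryos, 8 lay above the highest of the 15 WT embryos and 3 lay inside the WT range, all 3 from plate A. The log2 fold change was 0.99 (SE 0.28, adjusted p = 0.0444 in edgeR), 0.89 within plate A and 1.08 within plate B, where it did not pass the test (adjusted p = 0.561 and 0.222 in edgeR). With each of the 26 embryos left out in turn it stayed between 0.88 and 1.06, and the call held in 5 of the 26 cases, those without wells F5, F6 or F7 of plate A in matPlag1KO or wells E1 of plate A or F4 of plate B in WT. It was lost in the other cases, with an adjusted p of at most 0.102 in edgeR. At MII and 2c Hat1 was at 0.52 (SE 0.28) and 0.50 (SE 0.33), and neither passed the test. The difference at 2c minus that at 8c was -0.49 (SE 0.44, adjusted p = 0.602 in edgeR).

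The members next in order at 2c did not pass the test. Kat6a, the MOZ acetyltransferase, ran from 5.63 over 37.5 to 132 CPM in WT and from 36.7 over 78.0 to 208 CPM in matPlag1KO, with a log2 fold change of 0.96 (SE 0.39, adjusted p = 0.129 in edgeR). Brd8, a bromodomain subunit of the TIP60 complex, ran from 63.2 over 169 to 263 CPM in WT and from 0 over 97.0 to 211 CPM in matPlag1KO, at -0.70 (SE 0.31, adjusted p = 0.17 in edgeR). The start of Brd8 lies inside Kif20a on the opposite strand, and whether the counting used strand is not given in the sources used here. Hdac5 had 16 counts over 11 WT embryos and 10 over 11 matPlag1KO embryos, at -0.89 (SE 0.67, adjusted p = 0.466 in edgeR). Hdac11, the class IV deacetylase, had no count in 11 WT embryos and 4 and 2 counts in 2 of 11 matPlag1KO embryos. With the WT group set at 3 counts in all, the pooled ratio of matPlag1KO to WT was 1.71. Without that setting, the exact interval for counting error of the pooled ratio started at 1.006. The interval leaves out the spread between embryos, so neither value is a lower bound on the difference. At 8c, Brdt had 62 counts over 15 WT embryos and 92 over 11 matPlag1KO embryos, a log2 fold change of 1.36 (SE 0.41, adjusted p = 0.0614 in edgeR), and Brd3 was at -0.96 (SE 0.34, adjusted p = 0.129 in edgeR).

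**Figure D5:**
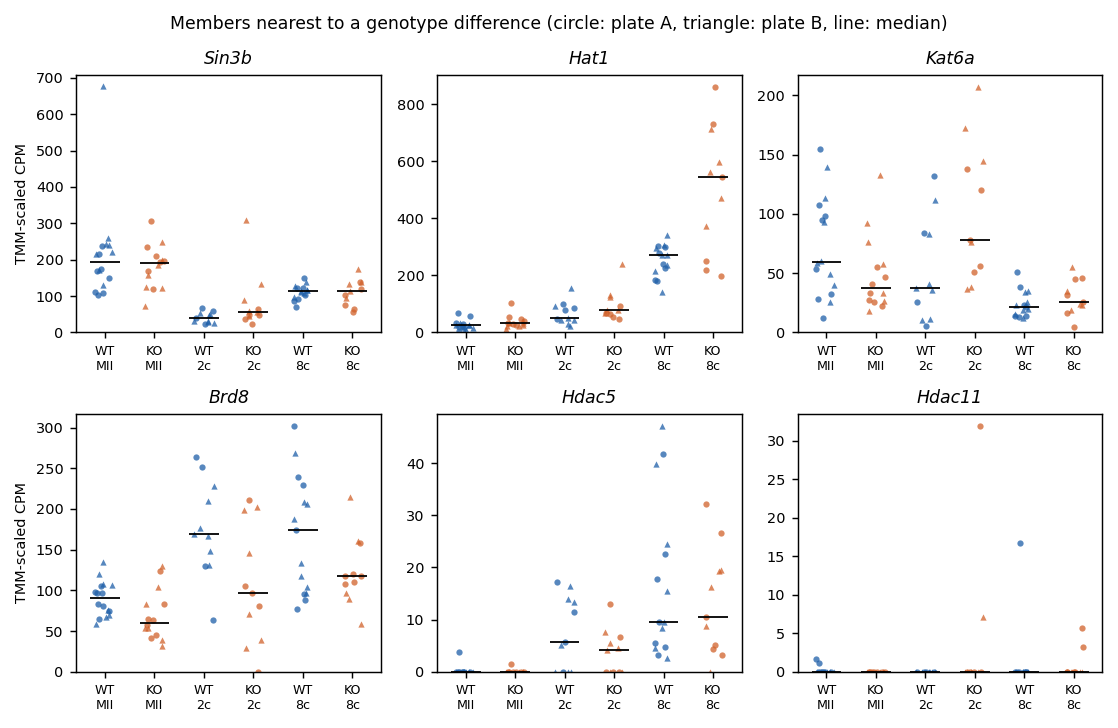
TMM-scaled CPM of Sin3b, Hat1, Kat6a, Brd8, Hdac5 and Hdac11 in every library by genotype and stage, with circles for plate A, triangles for plate B and lines for medians. Of Sin3b at 2c, 1 plate B embryo stands at 310 CPM, and of Hat1 at 8c, 8 of 11 matPlag1KO embryos stand above every WT embryo.

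Whether the genotype difference itself changed between stages was tested for each member. Between MII and 2c 1 of 38 members passed, beside 3.31% of all genes, and between 2c and 8c none did in edgeR, beside 2.30%, with 3 members at an unadjusted p under 0.05 in that test and none called with spike-in scaling. The member that passed was Hdac11, whose counts are at 0 in 2 of the 4 groups concerned. The stage changes above were called in both genotypes in the same direction for 21 members from MII to 2c and for 10 from 2c to 8c, and none was called in opposite directions. A call in 1 genotype alone is not a difference between them.

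Members that fall from oocyte to 8c were set beside their genotype difference at 2c, since the comparisons share no library. Of the 17 members that fell from MII to 8c in WT, 13 were higher in matPlag1KO at 2c, or 76.5%, beside 66.4% of the 7199 genes that fell. Of the 7 that rose, 3 were higher, or 42.9%, beside 37.7% of 4478 genes. The median log2 difference at 2c was 0.18 for the falling members and 0.36 for the falling genes, and with spike-in scaling 14 of the 17 were higher, or 82.4%, beside 72.9%. With TMM, 11 of the 17 lay above the median difference of all genes, or 64.7%, beside 61.7% of the falling genes. Of the 7 rising members 3 did, or 42.9%, beside 34.5%. The 17 include Hdac7, which at 2c had 1 count in matPlag1KO and 0 in WT. These are counts with no test.

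Other genes of the pathway were taken from 5 lists, whose counts stand beside a background over all genes of 14.1% rising and 51.3% falling between MII and 2c in WT and 31.9% and 16.2% between 2c and 8c, with spike-in scaling. Between genotypes the background was 4.92% at 2c and 1.74% at 8c. Of 19 other acetyltransferases and deacetylases, 1 rose and 14 fell between MII and 2c in WT with spike-in scaling, from -5.15 for the Elongator acetyltransferase Elp3 to 4.75 for Gtf3c4, a subunit of TFIIIC, and 1 was called at 2c between genotypes, Naa60 at 1.66 (adjusted p = 0.0482 in edgeR). Of 31 other bromodomain and YEATS readers, 1 rose, Yeats2 at 2.90, and 20 fell between MII and 2c, the lowest being Phip at -3.60. Of the same 31, 10 rose and 5 fell from 2c to 8c in WT, from -4.99 for Mllt3 to 3.39 for Dpf2. Between genotypes 2 readers were called at 8c, Smarca2, a chromatin remodelling ATPase, at 2.53 (SE 0.38) and Trim24 at -1.64 (SE 0.48). Of 44 subunits of acetyltransferase complexes, 5 rose and 27 fell between MII and 2c in WT, with Jade1, which had no count in WT oocytes, highest and Dmap1 lowest at -4.77, and at 2c 1 was higher and 2 lower in matPlag1KO, from -1.66 for Actl6a to 1.12 for Vps72. Of 38 subunits of deacetylase complexes, 3 rose and 25 fell between MII and 2c, with Mta2 of the NuRD complex highest at 5.80 and the demethylase Kdm1a lowest at -3.52, and Mier2 was called at 2c between genotypes at 1.40. Of the 17 tested genes of acetyl-CoA and NAD supply, 3 rose and 8 fell between MII and 2c, and 2 were called higher in matPlag1KO at 2c, Nmnat2 at 2.21 (SE 0.60) and Nadsyn1, which had no count in WT 2c embryos. The median log2 difference of these 17 genes at 2c was nonetheless -0.68, beside 0.12 over all genes. At 8c, 2 acetyltransferase complex subunits were called lower in matPlag1KO, Jade1 at -1.60 and Morf4l1 at -1.11. Of the deacetylase complex subunits 1 was called higher at 8c, Mier1 at 1.33, and 1 lower, Suds3 at -1.52. Nmrk1, of the NAD supply, was called higher at 1.34, and none of the 19 other acetyltransferases and deacetylases was called at 8c in edgeR. In oocytes no gene of the 5 lists was called between genotypes by edgeR.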

How the data were processed

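RNA from single oocytes and embryos was sequenced from its 5′ end with unique molecular identifiers and added ERCC transcripts. The libraries were made in 2 sets, labelled libA and libB and here called plates A and B. The authors mapped reads with TopHat and counted them per gene with HOMER on mm9, and deposited raw counts per gene and library. Versions, and whether strand was used, are not given in the sources used here. Groups and wells came from the labels. Of 90 libraries, 12 with a median under 1 CPM were dropped. A gene was tested where 5 or more libraries reached 1 CPM, which held for 16511 of 24422 (92 spike-ins apart). edgeR 4.0.16 in R 4.3.3 fitted 6 group means by quasi-likelihood, with TMM factors between genotypes and spike-in totals as library sizes between stages, and Benjamini-Hochberg adjustment at 0.05. The deposited values are counts of molecules, so intervals cover counting error only. The fits were tested on simulated counts. DESeq2 1.42.0, other scalings, filters, plates and left-out libraries were alternatives, and the libraries left out in turn and the well block at 2c were added after seeing the data.

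Full statistics were given for members called between genotypes, with those of lowest p at 2c added up to 6, and for the 4 highest and 4 lowest per stage step among those called alike in both genotypes with at least 10 CPM in a group. Exceptions are Hdac5, Hdac11 and Kat2b, given in part by counts or pooled levels alone, and the rise of Kat8 to 8c, given without SE. For some members only the WT step is given in full. Brdt and Brd3 at 8c, Hdac9, Crebbp and the other members named by role were chosen after their values were seen. The members and lists were chosen with earlier results of these data known. No pair of libraries within a group agreed within sampling noise (481 pairs, lowest chi-square per degree of freedom 3.54). Since the donor females are not given, p-values measure the spread between these samples. Some promoter windows are not reported here.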

Additional observations from a re-analysis of the deposited data

Results flagged for a closer look

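Hdac11, the class IV deacetylase, was the 1 member whose genotype difference changed between stages by a test of that change. The difference at 2c minus that at MII was 4.56 on the log2 scale (SE 1.26, adjusted p = 0.0273 in edgeR). It rests on 4 counts in 2 of 16 WT oocytes, none in 14 knockout oocytes, none in 11 WT 2c embryos and 6 counts in 2 of 11 matPlag1KO 2c embryos, so the fitted size depends on the prior count and is no bound.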

How the results depend on the processing

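Stage calls moved with the scaling as given beside each count, and within plate A the members called from 2c to 8c numbered 6 in WT and 4 in matPlag1KO, where 13 were called in each. From MII to 2c in WT 2 members rose and 17 fell within plate A, and 6 and 12 within plate B. Over all genes these numbers were 1140 and 7075, and 2418 and 4543. In matPlag1KO 5 members rose and 13 fell within plate A, and 3 and 17 within plate B. Over all genes they were 1298 and 6149, and 1432 and 6517. In oocytes, where none was called, plate A alone called 1 (Kat8, 2.39). The mean of Kat8 there was 68.2 CPM in WT and 352 in the knockout, while within plate B the order was reversed, at 177 and 87.7 CPM. At 2c, where 1 was called, the count was 0 with no filter on low counts, in plate A alone and in a fit of only the 2 groups, and 2 with DESeq2 (Kat6a, 1.17, and Sin3b). Over all libraries with at least 1000 gene counts Hdac11 (3.97) was called in place of Sin3b (0.91), which was at 1.01 with no filter and 1.10 in the fit of 2 groups. Within plate A, Sin3b reversed to -0.15 and Hat1 at 2c to -0.29. At 8c, where 1 was called, the count was 0 over all libraries, with no filter, with spike-in scaling and in either plate alone, and 2 (Brdt and Hat1) with DESeq2 and with median-ratio factors. Where its call was lost Hat1 was at 0.90 over all libraries, 0.98 with no filter, 1.02 with spike-in scaling and 0.89 and 1.08 within the plates. With each library left out in turn the count ran from 0 to 1 at 2c and from 0 to 2 at 8c. The cause of these moves was not tested.

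Over all genes, the calls at 2c were 379 higher and 433 lower with TMM, 191 and 94 with spike-in scaling, 721 and 273 with median-ratio factors, 733 and 401 with DESeq2, 150 and 352 in plate B and 0 in plate A. At 8c they were 200 and 87 with TMM, 91 and 15 with spike-in scaling, 38 and 8 in plate B and 4 and 2 in plate A. At MII, 129 genes were called in all and 367 higher and 96 lower in plate B.

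At MII, wells of the same name held WT oocytes on 1 plate and knockout oocytes on the other. Their deviations correlated at -0.04 to 0.77 over 14 pairs, above 0.1 in 12, and 12 of 14 plate A libraries correlated best with their own well, which is a hint from the data and not the design. Under a replicate block for the well, with a plate term, 1 member was called in oocytes (Hdac9, -1.63), and over all genes 639 were higher and 153 lower, beside 51 and 78 without it. At 2c, 3 of 8 such pairs correlated above 0.1 and at 8c 8 of 12 (0.002 to 0.355), and embryos of the same genotype in such pairs were counted as separate replicates. At 2c, 2 of the 8 wells held both genotypes. With those 16 libraries in a replicate block for the well with a plate term, chosen after seeing the data, edgeR called 0 members and 0 of 12058 genes (319 at an unadjusted p under 0.05), and Sin3b was at -0.71 (SE 0.98). The genotype term of that fit rests on the 2 wells with both genotypes, with 6 residual degrees of freedom, so no conclusion is drawn from its 0 calls. No paired analysis was possible at 8c because no well held both genotypes.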
